A study of Homo sapiens with 4 samples.

Results

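The genes described here encode the nuclear-encoded subunits of the oxidative phosphorylation complexes. Members were all protein-coding genes of the deposited table whose symbols begin with NDUFA, NDUFB, NDUFC, NDUFS or NDUFV and a digit, with UQCR, with COX and a digit from 4 to 8, or with ATP5. SDHA, SDHB, SDHC, SDHD and CYC1 were added, NDUFA4L2 was left out, and each symbol was matched by its Ensembl identifier. This rule gave 89 genes of the 58522 in the table. They comprised 37 genes of complex I, 4 of complex II, 10 of complex III, 18 of complex IV and 20 of complex V.

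Oxidative phosphorylation takes place in the inner mitochondrial membrane. Complexes I and II pass electrons from NADH and succinate to ubiquinone, complex III passes them on to cytochrome c, and complex IV passes them to oxygen. Complexes I, III and IV pump protons as they do so, and complex V, the ATP synthase, uses the proton gradient to make ATP. Most subunits are encoded in the nucleus and imported, while a few core subunits of complexes I, III, IV and V are encoded by the mitochondrial genome. In the endometrium, mitochondrial respiration supplies part of the ATP of the epithelium.

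RNA-seq libraries were made from Ishikawa cells, a human endometrial epithelial line derived from an adenocarcinoma. The control group was 2 libraries from cells transfected with a negative control shRNA, and the CDYL-sh group was 2 libraries from cells transfected with shRNA against CDYL, a chromodomain corepressor. The hairpins were carried by a U6 vector with ZsGreen and puromycin resistance, and transduced cells were selected with puromycin. No time or further agent is given by the labels for either group. The labels leave unsaid whether the 2 libraries of each group are separate cultures, and which of the study's CDYL hairpins each CDYL-sh library carried. The p-values therefore measure the spread between these libraries. That spread may be technical or, in CDYL-sh, may include a difference between hairpins. The comparison asks which subunit transcripts differ in cells with less CDYL.

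Total expected counts were between 22341852 and 27688447 per library. CDYL, the targeted gene, was at 50.4 and 53.0 CPM (counts scaled to library size by TMM) in control and at 11.4 and 9.70 CPM in CDYL-sh, which is a log2 fold change of -2.28 ± 0.13 (SE, n = 2 against 2; edgeR quasi-likelihood test, Benjamini-Hochberg adjusted p = 4.26e-09). Of 8 endometrial epithelial markers, 8 had at least 10 counts in every library, with summed levels of 3652 to 4003 CPM in control and 3440 to 3655 CPM in CDYL-sh. Among them KRT19 and KRT7 rose (log2 fold changes 0.70 and 0.53) and KRT18 fell (-0.34). Stromal markers summed to 23.8 to 26.1 CPM in control and 15.997 to 17.96 CPM in CDYL-sh, with COL3A1 and DCN at 0 in all libraries, and 3 of the 7 had at least 10 counts in every library. The 4 endothelial markers summed to 3.77 to 4.26 CPM in control and 7.93 to 8.70 CPM in CDYL-sh, with none at 0 throughout. PECAM1 alone went from 1.62 and 1.96 CPM to 5.21 and 6.34 CPM (log2 fold change 1.65, edgeR adjusted p = 0.000138), while CDH5 had -1.19 and did not pass. The 4 immune markers summed to 0.395 to 0.754 CPM in control and 0.2719 to 0.4999 CPM in CDYL-sh, with CD3E at 0. The part of these marker differences in the subunit results was not tested.

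The promoters of several members are shown first, since genes of this family are known to share sites for NRF1, for the ETS-family factor GABP, for YY1 and for Sp1. RefSeq windows on GRCh38.p14, from 250 bases before to 50 bases after the start of a transcript, were matched by symbol for 70 of the 89 members. The windows below belong to 4 members that rose in CDYL-sh and to ATP5F1C, the gamma subunit of complex V. ATP5F1C holds a full NRF1 palindrome and did not pass the test. Of the 8 members past the test that had a window, 3 held the ETS letters CCGGAAG. All 3 are among the 4 shown, so the 4 overstate that share. COX5B lies at chr2:97645812-97646111 on the plus strand, NDUFA1 at chrX:119871582-119871881 on the plus strand, NDUFA13 at chr19:19515975-19516274 on the plus strand, NDUFA7 at chr19:8321326-8321625 on the minus strand and ATP5F1C at chr10:7787927-7788226 on the plus strand. Each is written 5′ to 3′ on the strand of its gene, with matches to the ETS letters or to the NRF1 palindrome in capitals:
COX5B: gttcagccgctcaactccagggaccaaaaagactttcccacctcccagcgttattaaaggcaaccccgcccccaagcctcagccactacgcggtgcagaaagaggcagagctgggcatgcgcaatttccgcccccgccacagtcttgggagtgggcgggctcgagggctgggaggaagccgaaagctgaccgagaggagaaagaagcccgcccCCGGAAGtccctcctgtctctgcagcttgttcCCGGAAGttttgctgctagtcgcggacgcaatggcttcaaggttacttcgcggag
NDUFA1: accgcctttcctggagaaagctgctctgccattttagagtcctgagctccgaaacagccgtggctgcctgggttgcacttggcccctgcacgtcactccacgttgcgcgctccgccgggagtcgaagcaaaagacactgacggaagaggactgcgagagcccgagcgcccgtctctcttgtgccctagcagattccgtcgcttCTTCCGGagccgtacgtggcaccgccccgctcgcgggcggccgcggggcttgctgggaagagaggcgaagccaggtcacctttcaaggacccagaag
NDUFA13: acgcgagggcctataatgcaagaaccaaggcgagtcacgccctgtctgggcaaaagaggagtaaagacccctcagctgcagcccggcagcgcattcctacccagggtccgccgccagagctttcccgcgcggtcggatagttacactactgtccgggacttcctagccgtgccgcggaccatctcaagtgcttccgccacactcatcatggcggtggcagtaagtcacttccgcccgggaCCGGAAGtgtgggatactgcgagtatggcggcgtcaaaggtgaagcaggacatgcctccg
NDUFA7: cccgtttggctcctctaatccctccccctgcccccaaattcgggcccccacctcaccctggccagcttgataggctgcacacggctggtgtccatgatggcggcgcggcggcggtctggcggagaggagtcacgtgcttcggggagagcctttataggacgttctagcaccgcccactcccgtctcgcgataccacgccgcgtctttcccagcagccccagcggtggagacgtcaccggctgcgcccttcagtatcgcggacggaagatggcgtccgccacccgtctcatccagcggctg
ATP5F1C: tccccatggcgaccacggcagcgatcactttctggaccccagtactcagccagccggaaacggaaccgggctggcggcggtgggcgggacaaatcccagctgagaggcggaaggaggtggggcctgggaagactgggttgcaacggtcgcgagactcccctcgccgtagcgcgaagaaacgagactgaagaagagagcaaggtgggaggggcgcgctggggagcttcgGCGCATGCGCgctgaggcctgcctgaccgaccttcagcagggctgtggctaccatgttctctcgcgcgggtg

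COX5B held the ETS letters CCGGAAG at 2 places, beginning 37 and 5 bases before the start. NDUFA1 held them once on the opposite strand, beginning 47 bases before the start, and NDUFA13 once, beginning 10 bases before it. The NDUFA7 window held neither motif. The palindrome in ATP5F1C began 22 bases before the start and is the core CGCATGCG with one more G before it and one more C after it.

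Motifs were searched as exact letters on both strands, and none of the 4 contains another. CCGGAAG was found in 21 of the 70 matched members (30.0%), in 12.2% of the 27305 genes with a window and in 10.3% of all 35116 windows. Its carriers included COX4I1, COX5B, COX6A1 and COX8A of complex IV. The full NRF1 palindrome was found in 4 of the 70 members (5.71%), which were ATP5F1C, NDUFA8, NDUFB4 and SDHD, in 1.52% of genes and in 1.24% of all windows. The YY1 letters, AAGATGGCG followed by GC, were found in NDUFA9, NDUFS4, SDHB and UQCRC1, also 4 members, in 1.04% of genes and in 0.849% of all windows. The Sp1 letters GGGCGG were found in 45 members (64.3%), in 48.3% of genes and in 45.0% of all windows. Among the 8 members past the test that had a window, 8 held GGGCGG, 3 held CCGGAAG and 0 held the NRF1 or YY1 letters. These are matches of letters, and no binding was measured.

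Members were well expressed. Of the 89, 82 passed the filter on low counts. COX4I2, COX6A2, COX7A1 and COX8C had 0 counts in all 4 libraries, and COX6B2, UQCRHL and ATP5MGL were at or near 0 and below the filter. These 7 genes were not tested. Among the tissue-specific isoforms of complex IV, the lung or muscle form was therefore at 0 or below the filter where the ubiquitous form was abundant, as for COX4I2 beside COX4I1, COX6A2 beside COX6A1, and COX7A1 beside COX7A2. COX7B2, a paralogue of COX7B known mainly from testis, was the exception among the pairs examined, with 31.2 and 36.9 CPM in control and 40.2 and 45.6 CPM in CDYL-sh.

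Levels between genes were compared per length, as FPKM, averaged over the 4 libraries. The median of the 82 members was 304 FPKM, and the medians by complex were 221 FPKM for I, 194 for II, 421 for III, 644 for IV and 413 for V. COX8A, a small subunit of complex IV, was highest at 2172 FPKM. ATP5MF, of the ATP synthase membrane sector, reached 1789 FPKM, NDUFB9 of complex I 901 FPKM, UQCRH of complex III 810 FPKM and SDHB of complex II 261 FPKM. At the low end stood UQCRFS1, the Rieske protein, at 56.6 FPKM, and NDUFA5 at 19.3 FPKM. The length that these FPKM values imply for ATP5MF is 79.7 bases against 2130 annotated exonic bases, so the levels of such short transcripts depend on the authors' length correction. By CPM, which has no length correction, ATP5F1B, the catalytic beta subunit, was the most abundant at 2560 and 2801 CPM in control and 2504 and 2553 CPM in CDYL-sh.

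**Figure D1:**
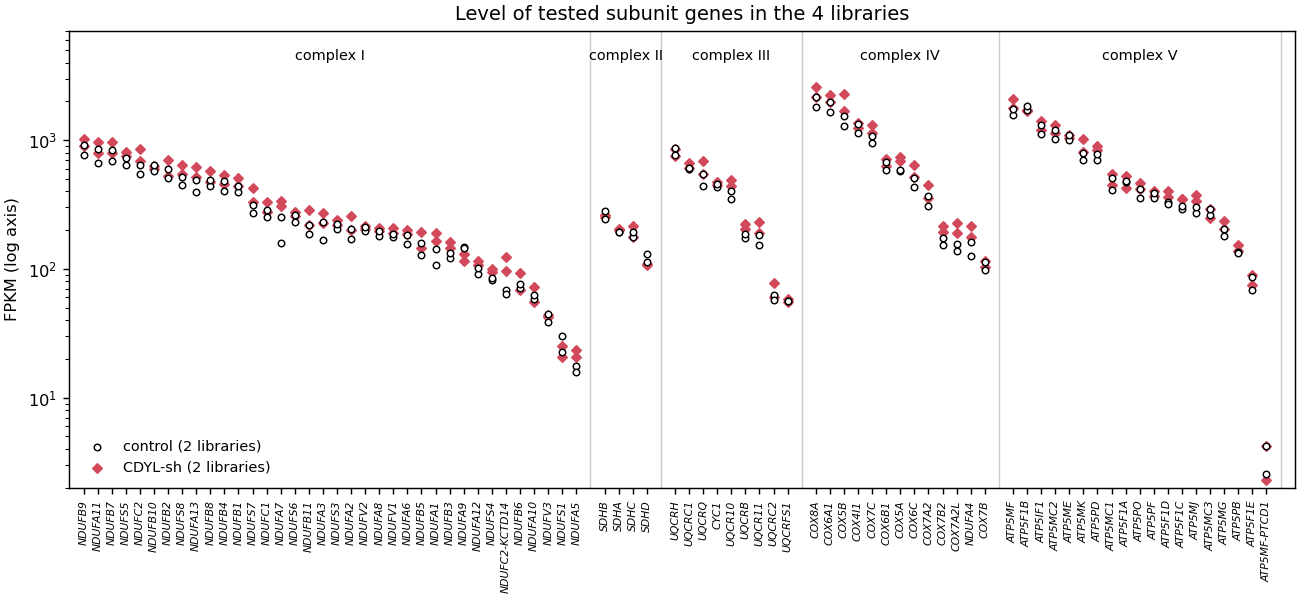
Level of 81 of the 82 tested members in FPKM on a log axis, ordered by mean level within each complex. Open circles are the 2 control libraries and filled diamonds the 2 CDYL-sh libraries. COX8A is the highest at a mean of 2172 FPKM and the read-through locus ATP5MF-PTCD1 the lowest at 3.33 FPKM.

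Against control, 9 of the 82 tested members passed the test in CDYL-sh, 8 higher and 1 lower (edgeR quasi-likelihood test, Benjamini-Hochberg over all 16158 genes tested, threshold 0.05). That is 10.98% of members, where 25.7% of all genes tested were called. The 8 higher are 9.76% of members against 13.6% of all genes, and the 1 lower is 1.22% against 12.1%. The order of the shares called higher turned under other settings. It was 20.7% of members against 15.1% of all genes with upper quartile factors and 17.6% against 8.9% with no filter. It was 24.4% against 15.9% with at least 10 counts in every library and 23.2% against 17.1% with offsets for GC content and length. With the replicate number as a block it was 47.6% against 17.4%. The order was kept with RLE factors, library size only, DESeq2 and limma. Among the fits that left 1 library in a group, it was kept without control 1 and without CDYL-sh 2, and turned in the others. Without control 2 it was 31.7% against 12.4%, and without CDYL-sh 1 it was 27.7% against 9.97%. The estimates leaned upward even so, with 68 of 82 log2 fold changes above 0 and a median of 0.17, beside a median of 0.01 over all genes. Changes were small, from -0.72 to 0.71 on the log2 scale, and 3 of the 82 exceeded 1.5-fold. In bulk RNA, fewer cells of a type and less RNA per cell cannot be told apart.

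The groups did not overlap in 26 members with both CDYL-sh libraries above both controls, which is 31.7% of members and close to the 32.5% of all genes. In 4 members both CDYL-sh libraries lay below both controls, against 31.8% of all genes. The remaining 52 overlapped.

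**Figure D2:**
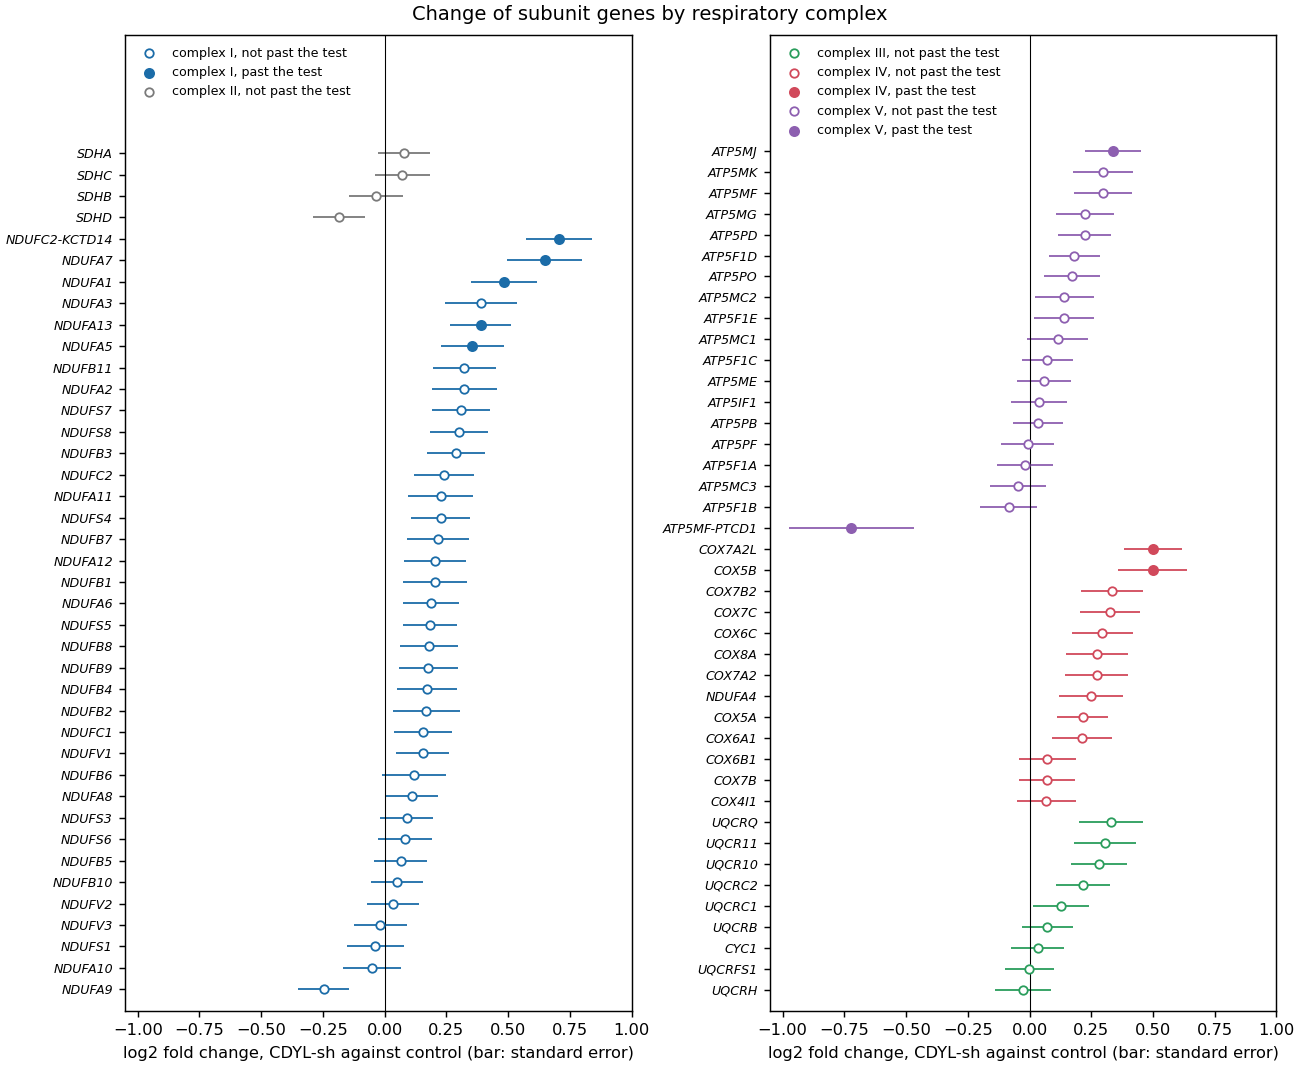
Log2 fold change of 81 of the 82 tested members, CDYL-sh against control, by complex, with the standard error as a bar (n = 2 against 2). Filled points passed the test: 5 of complex I, 2 of complex IV and 2 of complex V, of which ATP5MF-PTCD1 alone is negative.

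The upward lean was carried unevenly by the libraries. Relative to the mean of the controls, the median over the 82 members was -0.11 in control 1, 0.11 in control 2, 0.07 in CDYL-sh 1 and 0.27 in CDYL-sh 2 on the log2 scale. Control 2 therefore lay above CDYL-sh 1. Control 1 was the lowest library for 63 of the 82 members, and CDYL-sh 2 was the highest for 65. Over all 16158 genes the same medians lay between -0.01 and 0.02. Without control 1 the median fold change fell to 0.05, with 56 of 83 members above 0. Without CDYL-sh 2 it fell to 0.07, with 61 of 83 above 0. Without control 2, 75 of 82 were above 0, and without CDYL-sh 1, 73 of 83 were. Over all genes the medians in these fits lay between -0.004 and 0.013. The size of the lean thus rests on control 1 and CDYL-sh 2. Counts past the test are not compared here, since each fit left 1 library in a group and the share of all genes called moved too.

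**Figure D3:**
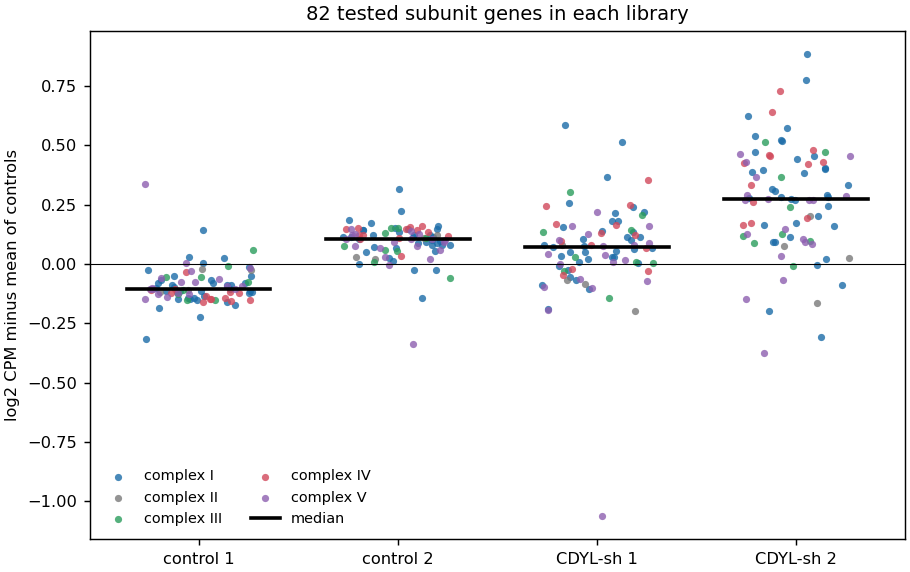
Log2 CPM of each of the 82 tested members minus the mean of its 2 control values, by library, coloured by complex. The black line is the median, at -0.11, 0.11, 0.07 and 0.27, and control 2 lies above CDYL-sh 1.

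The members took 1.63% and 1.81% of all counts under control shRNA and 1.80% and 1.97% under CDYL shRNA, means of 1.72% ± 0.13 and 1.89% ± 0.12 (SD, n = 2 each). The groups overlapped (two-sided exact permutation test p = 0.667, where the smallest p this design allows is 0.333). Complex IV took 0.301% and 0.352% in control and 0.358% and 0.420% in CDYL-sh, without overlap, at that smallest p of 0.333. Complex I took 0.420% and 0.476% in control and 0.482% and 0.546% in CDYL-sh, also without overlap. Complex III took 0.210% and 0.228% in control and 0.230% and 0.252% in CDYL-sh, likewise without overlap. The shares of complex II, from 0.0850% to 0.0904%, and of complex V, from 0.611% to 0.663%, overlapped.

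Complex I contributed 37 tested members, of which 5 rose, 0 fell and 32 did not pass, with a median log2 fold change of 0.18. The 5 are 13.5%, close to the 13.6% of all genes called higher. NDUFA7, an accessory subunit (ENSG00000267855, chr19:8308768-8321375), was at 47.5 and 73.5 CPM in control and at 88.6 and 101 CPM in CDYL-sh. Its libraries did not overlap, and its log2 fold change was 0.65 ± 0.15 (SE; edgeR adjusted p = 0.0042). NDUFA7 overlaps RPS28 and a read-through locus, and its counts were not whole, so some of its reads were shared out between loci. NDUFA1 (ENSG00000125356, chrX:119871832-119876662), a small accessory subunit needed for assembly of the complex, was at 49.3 and 67.1 CPM in control and 74.2 and 88.7 CPM in CDYL-sh. It rose by 0.48 ± 0.14 on the log2 scale (edgeR adjusted p = 0.0137), again without overlap. Without control 1 the adjusted p was 0.0922 for NDUFA7 and 0.222 for NDUFA1, and without CDYL-sh 2 it was 0.111 for NDUFA1.

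NDUFA13 (ENSG00000186010, chr19:19515736-19529054), also known as GRIM-19, was at 166 and 204 CPM in control and 217 and 268 CPM in CDYL-sh, for a log2 fold change of 0.39 ± 0.12 (edgeR adjusted p = 0.026). It overlaps YJEFN3 and a read-through locus on its own strand, and without control 1 or CDYL-sh 2 its adjusted p was 0.311 or 0.294. NDUFA5, a further accessory subunit, was at 24.4 and 23.5 CPM in control and 28.6 and 32.8 CPM in CDYL-sh, and is named here after its values were seen. Its adjusted p of 0.0465 by edgeR was the closest to the threshold among the 9, and its log2 fold change of 0.36 became 0.11 (adjusted p = 0.477) with offsets for GC content and length. Without any 1 of the 4 libraries NDUFA5 did not pass, with adjusted p from 0.0776 to 0.429.

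NDUFC2-KCTD14 had the largest rise among the members. It is a read-through locus that joins the subunit gene NDUFC2 to its neighbour KCTD14 (ENSG00000259112, chr11:78016971-78079865). Its values were 24.6 and 23.7 CPM in control and 34.5 and 44.5 CPM in CDYL-sh, for a log2 fold change of 0.71 ± 0.13 (edgeR adjusted p = 0.000971). NDUFC2 itself was at 185 and 216 CPM in control and 210.1 and 263 CPM in CDYL-sh, with overlap, and its change of 0.24 ± 0.12 did not pass (edgeR adjusted p = 0.151). With the counts of both loci summed, an alternative chosen after seeing the data, the log2 fold change was 0.30 ± 0.12 and did not pass (edgeR adjusted p = 0.0738).

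None of the 7 core subunits of complex I, which carry the flavin, the iron-sulfur clusters and the quinone site, passed the edgeR test, 2 were at an unadjusted p under 0.05, and their median was 0.09. The 29 accessory subunits, without the read-through locus, had 4 members past the test (13.8%) and a median of 0.19. With offsets for GC content and length the order of the medians turned. The core then had 3 of 7 higher, 0 lower and a median of 0.21. The accessory subunits had 7 higher, 1 lower and a median of 0.16. NDUFS7 and NDUFS8, iron-sulfur proteins next to the quinone site, were the highest of the core. NDUFS7 was at 151 and 169 CPM in control and 176 and 222 CPM in CDYL-sh, for a log2 fold change of 0.31 ± 0.12 that missed the threshold (edgeR adjusted p = 0.0596). NDUFS8 was at 213 and 246 CPM in control and 254 and 310.4 CPM in CDYL-sh (log2 fold change 0.30 ± 0.12, edgeR adjusted p = 0.0674). NDUFS1, the largest subunit, was at 92.1 and 75.6 CPM in control and 85.1 and 78.4 CPM in CDYL-sh, fully overlapping. NDUFA9, chosen after its values were seen, had the lowest estimate of the complex, with 129 and 128 CPM in control and 113 and 104 CPM in CDYL-sh (log2 fold change -0.25 ± 0.10, edgeR adjusted p = 0.0859). With the offsets NDUFA9 passed as lower, at -0.31 (edgeR adjusted p = 0.0129).

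Complex II, which is also the succinate dehydrogenase of the tricarboxylic acid cycle and has no mitochondrially encoded subunit, had 0 of 4 members past the test with edgeR, DESeq2 and limma-voom, 0 at an unadjusted p under 0.05 in the edgeR fit and a median of 0.02. SDHA, the flavoprotein, was at 385 and 396 CPM in control and 412 and 412 CPM in CDYL-sh. SDHB, the iron-sulfur subunit, was at 204 and 241 CPM in control and 209 and 226 CPM in CDYL-sh. Both differed by less than 0.1 on the log2 scale. SDHD, a membrane anchor, was at 127 and 148 CPM in control and 119.7 and 122 CPM in CDYL-sh, for a log2 fold change of -0.19 ± 0.11 (edgeR adjusted p = 0.219). With offsets for GC content and length SDHD passed as lower, at -0.34 (edgeR adjusted p = 0.0164).

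In complex III, 0 of 9 tested members passed with edgeR, DESeq2 or limma-voom, 3 were at an unadjusted p under 0.05 in the edgeR fit, and the median was 0.13. The subunits that carry electrons had small estimates. CYC1, cytochrome c1, was at 404 and 437 CPM in control and 411 and 449 CPM in CDYL-sh. UQCRFS1 was at 178 and 181 CPM in control and 181 and 178 CPM in CDYL-sh, with a log2 fold change of -0.0013 ± 0.10. UQCRQ, a small subunit, had the highest estimate and was at 162 and 199.9 CPM in control and 198 and 257 CPM in CDYL-sh (log2 fold change 0.33 ± 0.13, edgeR adjusted p = 0.0667). UQCR11 had 0.30 ± 0.13 and UQCR10 0.28 ± 0.11, and neither passed. With offsets for GC content and length these 3 passed, with edgeR adjusted p of 0.0197, 0.0111 and 0.0347. UQCRC2, a core protein, had 0.22, while the small subunits UQCRB and UQCRH had 0.07 and -0.03.

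Complex IV had the highest median of the 5 complexes, 0.27, and all 13 of its tested members had estimates above 0, from 0.07 to 0.50. The complex had 2 members past the test, both higher (15.4%, against 13.6% of all genes called higher). With offsets for GC content and length its median was 0.15, COX7B was at -0.016 and complex I had the highest median, 0.20. Without control 1 or CDYL-sh 2, 10 and 11 of the 13 estimates were above 0. COX5B (ENSG00000135940, chr2:97646062-97648383), a nuclear subunit that binds zinc, was at 244 and 303 CPM in control and 322 and 451 CPM in CDYL-sh. The groups did not overlap, and it rose by 0.50 ± 0.14 on the log2 scale (edgeR adjusted p = 0.0143). COX7A2L (ENSG00000115944, chr2:42333546-42425088), which links complexes III and IV in supercomplexes and is also called SCAF1, was at 113 and 131 CPM in control and 156 and 190.1 CPM in CDYL-sh. It rose by 0.50 ± 0.12 on the log2 scale (edgeR adjusted p = 0.0043). Without control 1 or CDYL-sh 2 the adjusted p was 0.209 or 0.286 for COX5B and 0.0875 or 0.0759 for COX7A2L.

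The other nuclear subunits of complex IV did not pass. COX4I1, a regulatory subunit, was at 445 and 537 CPM in control and 482 and 548 CPM in CDYL-sh, with overlap and a log2 fold change of 0.07 ± 0.12. COX5A, which faces the matrix, was at 239 and 251 CPM in control and 275 and 294 CPM in CDYL-sh (0.22 ± 0.10, edgeR adjusted p = 0.135). COX7C was at 249.6 and 290.0 CPM in control and 301 and 375 CPM in CDYL-sh, for a log2 fold change of 0.33 ± 0.12 that did not pass (edgeR adjusted p = 0.0546). COX7B2 had an estimate of 0.33 ± 0.13 with an adjusted p of 0.0588 by edgeR, while its paralogue COX7B had 0.07 ± 0.11. With offsets for GC content and length the log2 fold change of COX7C was 0.090 (edgeR adjusted p = 0.571) and that of COX7B2 0.15 (edgeR adjusted p = 0.295). NDUFA4, named for complex I and since placed in complex IV, was at 226 and 282 CPM in control and 265 and 339 CPM in CDYL-sh, with overlap. It too was chosen after its values were seen.

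In complex V, 1 of 19 tested members rose, 1 fell and 17 did not pass, with a median of 0.11. That is 5.26% in each direction, against 13.6% of all genes called higher and 12.1% called lower. ATP5MJ (ENSG00000156411, chr14:103912288-103928269), a small protein of the membrane sector, was at 89.1 and 103 CPM in control and 111 and 131 CPM in CDYL-sh, for a log2 fold change of 0.34 ± 0.11 (edgeR adjusted p = 0.0366, and 0.301 or 0.362 without control 1 or CDYL-sh 2). ATP5MF-PTCD1, the one member that fell, is a read-through of ATP5MF into PTCD1 (ENSG00000248919, chr7:99419749-99466197) at a low level. It had 9.12 and 5.73 CPM in control and 3.46 and 5.57 CPM in CDYL-sh, for a log2 fold change of -0.72 ± 0.25 (edgeR adjusted p = 0.0426, and 0.375 or 0.317 without control 1 or CDYL-sh 1). In FPKM its groups overlapped, with 4.21 and 2.57 in control and 2.30 and 4.22 in CDYL-sh. ATP5MF was at 118 and 139 CPM in control and 143 and 172 CPM in CDYL-sh (0.30 ± 0.12, edgeR adjusted p = 0.0724), and with both loci summed the change was 0.25 (edgeR adjusted p = 0.113).

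The 5 subunits of the soluble F1 part of complex V, ATP5F1A to ATP5F1E, had 0 past the test, 0 at an unadjusted p under 0.05 and a median of 0.07. ATP5F1B was the member with the lowest estimate among them, -0.08 ± 0.12. ATP5F1A, the alpha subunit, was at 767 and 801 CPM in control and 840.1 and 708 CPM in CDYL-sh, so that the CDYL-sh libraries lay on either side of the controls. The 3 genes of the c-ring, ATP5MC1, ATP5MC2 and ATP5MC3, which encode the same mature protein, had log2 fold changes of 0.11, 0.14 and -0.05, and none passed. ATP5IF1, an inhibitor of ATP hydrolysis by the complex, was at 258 and 297 CPM in control and 263 and 307 CPM in CDYL-sh.

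The estimates were larger for short genes. Across the 82 members, Pearson's r of the log2 fold change with exonic length was -0.28 and Spearman's rho -0.26, given as a description since members share their libraries. The 11 tested members with under 1000 exonic bases had a median of 0.27, and the 17 with 5000 or more had 0.08. Over all genes of the same length classes the medians were 0.04 (743 genes) and 0.02 (7622 genes). In the class between, from 1000 to 5000 bases, the median was 0.18 for 54 members and 0.003 for all 7463 genes. With offsets for GC content and length in each library, 19 members rose and 2 fell, against 17.1% and 14.1% of all genes, and the median of members was 0.14.

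Most mitochondrially encoded subunits of the same complexes ran in the other direction, with 11 of 13 estimates below 0. MT-ND3 of complex I, at 0.13, and MT-CO2, at 0.04, lay above 0 and did not pass. Both are named here after their values were seen. Of 13, 0 rose and 8 fell, with a median log2 fold change of -0.37 (edgeR, adjusted over all genes). The 8 are 61.5%, against 12.1% of all genes called lower. Without control 1 or control 2, 5 fell, and without CDYL-sh 2, 4 did. The 7 of complex I had a median of -0.65 and 6 fell, while the 37 nuclear members of that complex had a median of 0.18. MT-ND5 was at 3622 and 3722 CPM in control and 2195 and 1912 CPM in CDYL-sh (log2 fold change -0.84 ± 0.12, edgeR adjusted p = 7.96e-05). MT-ND1 and MT-ND2 had -0.79 and -0.76. The 3 mitochondrially encoded subunits of complex IV had 0 past the test and a median of -0.08. The mitochondrial genes took 3.40% and 3.24% of all counts in control and 2.78% and 2.43% in CDYL-sh. The difference between the 2 genomes was not tested.

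**Figure D4:**
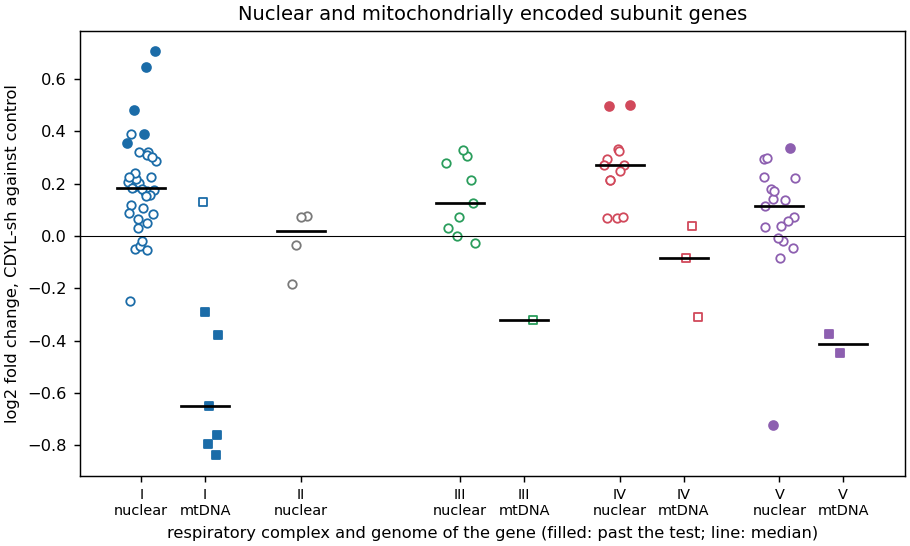
Log2 fold change of nuclear (circles) and mitochondrially encoded (squares) subunit genes, by complex, with the median as a line and filled symbols past the test. In complex I the nuclear median is 0.18 and the mitochondrial median -0.65.

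Among components of the pathway outside the member rule, NDUFA4L2 had a larger estimate than any member. NDUFA4L2, a hypoxia-inducible paralogue of NDUFA4, was at 2.76 and 4.11 CPM in control and 17.1 and 22.7 CPM in CDYL-sh, for a log2 fold change of 2.51 ± 0.21 (edgeR adjusted p = 2.9e-07). NDUFAB1, the mitochondrial acyl carrier protein and also part of complex I, was at 169.6 and 183 CPM in control and 114 and 135 CPM in CDYL-sh (-0.50 ± 0.11, edgeR adjusted p = 0.00277). CYCS, cytochrome c itself, was at 204 and 199 CPM in control and 203 and 205 CPM in CDYL-sh.

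Of 61 assembly factors tested, 7 rose and 6 fell, so that 21.3% were past the test against 25.7% of all genes. For complex I, 0 of 17 rose and 3 fell (17.6%, against 12.1% of all genes called lower). They were NDUFAF8 (-0.71 ± 0.16), NDUFAF6 (-0.43 ± 0.14) and NDUFAF5 (-0.34 ± 0.12), and the last had an adjusted p of 0.0488 by edgeR. Without control 1 none of the 3 passed, with adjusted p of 0.0926, 0.107 and 0.0906, and NDUFAF5 did not pass without any 1 library. Without CDYL-sh 2 the adjusted p of NDUFAF6 was 0.411. For complex IV, 6 of 29 rose (20.7%, against 13.6% of all genes called higher) and 3 fell (10.3%, against 12.1% called lower). COX20, a chaperone of the mitochondrially encoded COX2, was at 33.3 and 31.7 CPM in control and 17.0 and 15.2 CPM in CDYL-sh (-1.01 ± 0.13, edgeR adjusted p = 3.25e-05). LRPPRC, which stabilizes mitochondrial mRNAs, was at 67.0 and 55.7 CPM in control and 106 and 114 CPM in CDYL-sh (0.84 ± 0.11, edgeR adjusted p = 4.73e-05), and COA7 fell by 0.60 on the log2 scale. For complex III, 1 of 6 rose (16.7%, against 13.6% of all genes called higher). It was UQCC3, at 0.55 ± 0.13, with estimates of 0.45 without control 1 and 0.34 without CDYL-sh 2. For complexes II and V 0 of 4 and 0 of 5 passed.

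Among 14 regulators of mitochondrial genes, 3 rose and 4 fell, with a median of -0.17. That is 21.4% higher and 28.6% lower, against 13.6% and 12.1% of all genes. PPRC1 and PPARGC1B, coactivators of the PGC-1 family, had log2 fold changes of -0.57 ± 0.11 and -0.85 ± 0.16. NRF1, which binds the palindrome described above, was at 26.2 and 26.3 CPM in control and 18.2 and 16.4 CPM in CDYL-sh (-0.60 ± 0.13, edgeR adjusted p = 0.00288, and 0.0632 without CDYL-sh 2). GABPA, the ETS subunit of GABP, was at 14.1 and 10.3 CPM in control and 19.5 and 21.0 CPM in CDYL-sh (0.73 ± 0.16, edgeR adjusted p = 0.00297). GABPB1 and GABPB2 had -0.17 and -0.41 and did not pass (edgeR adjusted p = 0.395 and 0.0869). With offsets for GC content and length GABPA was at 0.51, and GABPB1 and GABPB2 passed as lower (edgeR adjusted p = 0.0184 and 0.0401). These 3 genes are named here after their values were seen. In the tricarboxylic acid cycle, 2 of 14 enzymes rose (14.3%) and 4 fell (28.6%). IDH2 was at 0.98 ± 0.13, DLD at 0.69 ± 0.13 and IDH3A at -0.86 ± 0.11. Of 4 adenine nucleotide and phosphate carriers, SLC25A6 rose by 0.47 ± 0.12 and 3 did not pass. Without control 1 or CDYL-sh 2 the adjusted p of SLC25A6 was 0.111 or 0.0741.

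The number of members past the test varied with the setting. It was 10 with RLE factors, 12 with library size only, 9 with limma-voom and 6 with DESeq2. It was 18 with upper quartile factors and 21 with a filter of at least 10 counts in every library. With limma on log2 FPKM it was 0 at either pseudocount, a scale on which at most 507 of 15574 genes were called, with 18 or 19 members at an unadjusted p under 0.05. NDUFC2-KCTD14 passed in 15 of 17 alternatives. NDUFA7, NDUFA1, NDUFA13, COX7A2L and ATP5MJ each passed in 13 of 17, COX5B in 12, ATP5MF-PTCD1 in 10 and NDUFA5 in 5.

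**Figure D5:**
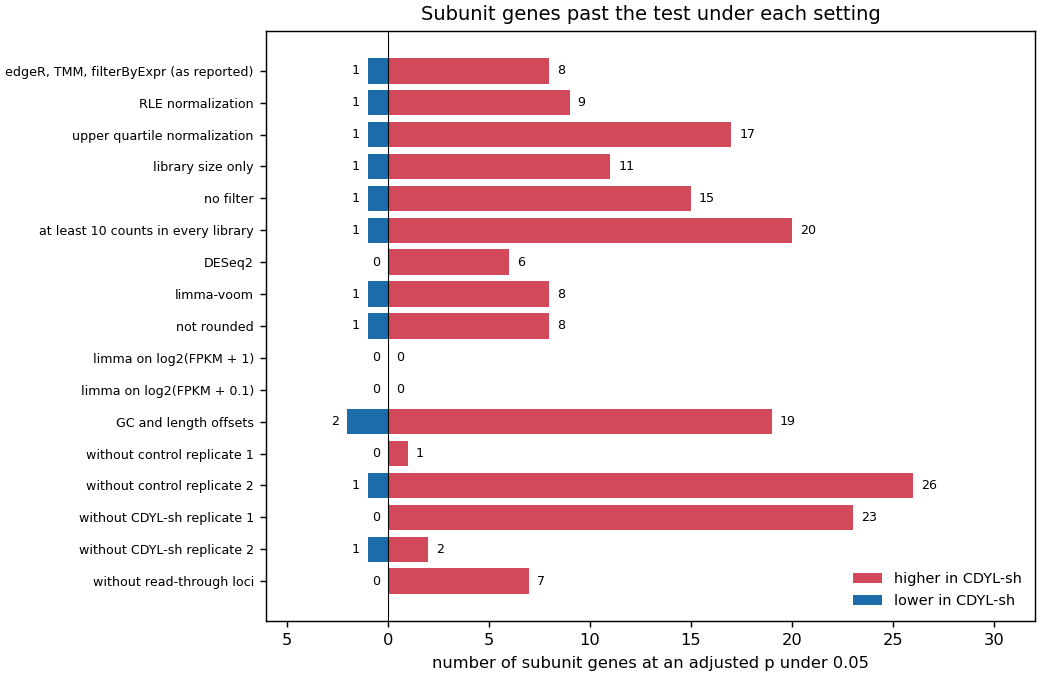
Number of members with an adjusted p under 0.05, higher (right) or lower (left) in CDYL-sh, under 17 settings without a block. The total runs from 0 with limma on log2 FPKM to 27 without control 2, beside 9 as reported.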

How the data were processed

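RNA was sequenced in 2 control and 2 CDYL-sh libraries of Ishikawa cells. Per the study's methods, the authors made TruSeq libraries, read paired ends and used TopHat to align them to GRCh38.p10. RSEM and edgeR are named in the processing notes of the submitters as well. For every gene the authors deposited an expected count per library, estimated from the reads and with decimals in many genes, beside an FPKM, in which length and depth are divided out. The annotation release is not given in the sources used here.

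Expected counts were rounded, filtered with filterByExpr, normalized by TMM and tested with edgeR 4.0.16 (glmQLFit, glmQLFTest; R 4.3.3). The model held the group only, and the Benjamini-Hochberg adjustment ran over 16158 genes, with a prior count of 2 and a threshold of 0.05. The test was first run on simulated data. Alternatives used limma 3.58.1, DESeq2 1.42.0 and mgcv 1.9.3. GENCODE release 44 on GRCh38 gave symbols, positions, GC content and lengths for 57392 of 58233 Ensembl identifiers. Limma on FPKM used log2(FPKM + 1) or log2(FPKM + 0.1) where the mean FPKM reached 0.5, scales that understate changes of low genes.

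Members, related lists, motifs and tests were chosen with earlier results of these data known. Named genes were, in each complex, the 4 with the lowest adjusted p, the one with the highest FPKM, catalytic or cofactor-binding subunits and tissue isoforms, and 3 genes of each of the 10 related lists. Genes named outside that rule are marked in the text, apart from NDUFC2, UQCRB and genes listed only as carriers of a motif. The values of 1 member are not reported here, while counts and medians include it. SDs cover 2 libraries a group. Each SE is the size of the log2 fold change divided by the square root of the F statistic of the edgeR test. It therefore draws on a spread estimated partly over all genes, and is not the gene's own spread alone. The 188 pseudogenes named after members held 0.197% as many counts as the members.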

Additional observations from a re-analysis of the deposited data

How the results depend on the processing

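The median of the members kept its sign under the alternatives run, with values from 0.05 to 0.28, while single members changed sign as given below, and CDYL stayed lower, with log2 fold changes from -2.42 to -2.05. The number of members past the test did not keep its size, and the cause was not tested. With upper quartile factors it was 18 (17 higher), with 9 in complex I, 2 in III and 4 in IV, and with library size only 1 passed in complex III. With no filter it was 16 (15 higher), with 9 in complex I and 2 in III. With at least 10 counts in every library it was 21 (20 higher), with 10 in complex I, 2 in III, 5 in IV and 4 in V. DESeq2 gave 0 lower, 3 in complex I and 1 in V. Limma on log2(FPKM + 1) or log2(FPKM + 0.1) gave 0 higher, 0 lower and 0 in each of complexes I, IV and V. GC and length offsets gave 21 (19 higher, 2 lower), with 12 in complex I, 1 in II and 3 in III. Without the read-through loci, a choice made after seeing the data, it was 7, with 0 lower.

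With each library left out in turn, 1 to 27 members passed, 1 to 26 higher and 0 to 1 lower, with 1 to 12 in complex I, 0 to 3 in III, 0 to 8 in IV and 0 to 4 in V. The fits assume that the lone library of a group varies like the other group. Log2 fold changes that changed sign there ran from -0.012 to 0.29 for ATP5F1E, -0.073 to 0.14 for ATP5IF1, -0.067 to 0.26 for ATP5MC1, -0.072 to 0.21 for COX4I1, -0.057 to 0.20 for COX6B1, -0.056 to 0.19 for COX7B, -0.034 to 0.090 for CYC1, -0.17 to 0.10 for NDUFS1 and -0.055 to 0.11 for NDUFV2. They ran from -0.16 to 0.10 for ATP5F1A, -0.19 to 0.072 for ATP5MC3, -0.16 to 0.091 for SDHB, -0.026 to 0.011 for UQCRFS1, -0.15 to 0.087 for UQCRH and -0.067 to 0.19 for SDHC. None of these 15 members passed as reported. Under other settings UQCRFS1 was 0.022 with upper quartile factors, 0.012 with library size only, 0.010 with log2(FPKM + 1) and 0.011 with log2(FPKM + 0.1), and ATP5F1A was 0.0062 with upper quartile factors. With GC and length offsets ATP5F1B was 0.034, ATP5F1C -0.0028, ATP5F1E -0.059, COX7B -0.016, NDUFV2 -0.065, UQCRH 0.027 and CYCS -0.049.

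The labels number the libraries in both groups but do not say that the numbers pair them. Deviations of same-numbered libraries from their group means correlated at 0.07 over 16158 genes and at 0.28 over the members. A fit with the replicate number as a block (replicate block) called 40 members (39 higher), with 20 in complex I, 4 in III, 10 in IV and 6 in V. It called 5393 genes in all beside 4157. That is 48.8% of members against 33.4% of all genes, and 47.6% against 17.4% called higher. With the replicate block and GC and length offsets together 38 were called (34 higher, 4 lower), with 20 in complex I, 2 in II, 4 in III, 4 in IV and 8 in V. That is 46.3% of members against 37.8% of all genes, and 41.5% against 20.5% called higher. In that fit ATP5F1B was 0.034, ATP5F1C -0.0011, ATP5F1E -0.045, COX7B -0.012, NDUFV2 -0.061, UQCRH 0.025 and CYCS -0.049.

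Of the related lists, counts past the test moved as follows. Assembly factors of complex I numbered 1 with library size only, 0 with DESeq2 or limma on FPKM and 5 with GC and length offsets or with the replicate block. Those of complex II numbered 1 with RLE, upper quartile factors, at least 10 counts in every library or the replicate block and 2 with the offsets, and those of complex III 2 with RLE, no filter, at least 10 counts, limma-voom, counts not rounded, the offsets or the block. Limma on FPKM gave 0 for complex III, 2 for IV, 1 for other components, 0 regulators, 1 tricarboxylic acid cycle enzyme, 2 mitochondrially encoded subunits and 0 carriers. The offsets and the block gave 1 for complex V each, and both together 7, 3, 3, 15 and 2 for complexes I to V and 11 regulators. With each library left out, the ranges were 0 to 3, 0 to 2, 4 to 9 and 0 to 1 for complexes I, III, IV and V, 4 to 6 for regulators, 4 to 7 for mitochondrially encoded subunits and 0 to 1 for carriers.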
